A study of Homo sapiens with 6 samples.

Results

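Cell division genes of A549 cells, a human lung adenocarcinoma line, were followed here through 54 transcripts that encode the mitotic kinases and their switches, the kinetochore, the spindle checkpoint, condensin, the cytokinesis apparatus and 2 transcription factors of the mitotic programme. The members were chosen by function and matched by symbol: each of the 54 symbols was found once among the 61806 genes of the deposited table, and all 54 were among the 16082 genes that passed the filter on low counts. The treated libraries came from cells given Japoflavone B for 24 h at a dose of 40, whose unit the labels do not state, and the other libraries from cells given the solvent DMSO for the same time. There were 3 libraries in each group, all from wild type A549 cells seeded 24 h earlier, and the title of the series calls the compound a PARP1 inhibitor. Whether the libraries of a group came from separate cultures is not stated, so a p-value here speaks only of the scatter among the 6 libraries.

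Entry into mitosis is driven by the kinase CDK1 bound to cyclin A or B. CDC25 phosphatases switch that kinase on, whereas WEE1 and PKMYT1 hold it off. Condensin then compacts the chromosomes, kinetochores built on CENPA nucleosomes capture microtubules, and the spindle checkpoint delays CDC20 and separase until every chromosome is attached. Most of these genes are transcribed late in the cell cycle. Their promoters are known to carry CCAAT boxes bound by NF-Y and cell cycle homology regions bound by MuvB complexes, which activate transcription together with MYBL2 and FOXM1 and repress it, in cells that leave the cycle, as the DREAM complex.

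The libraries held 15733769 to 19822366 counts after Japoflavone B and 15298531 to 21744407 after DMSO, and the member with the fewest reads still had 28 counts in its lowest library. Depth-scaled log2 counts correlated at 0.990 to 0.992 within groups and at 0.926 to 0.931 between groups (Pearson's r across genes, which are not independent). The keratin genes that mark this epithelial line, KRT7, KRT8 and KRT18, stood at 359.7, 83.9 and 130.03 FPKM after Japoflavone B and at 515, 257 and 464 FPKM after DMSO (means of 3 libraries); of 5 epithelial markers 4 were lower after treatment, and the fifth, EPCAM, was low in both groups (0.673 and 0.907 FPKM). Of the genes under NRF2, which is constitutively active in A549 cells, 5 of 5 were lower, with summed levels of 1665 to 1706 FPKM after Japoflavone B and 5380 to 5701 FPKM after DMSO. Both marker counts are of genes called lower by the edgeR test described below, as were 35.4% of all genes tested. Summed over 5 leukocyte markers, levels were 0.11 to 0.30 FPKM after Japoflavone B and 0.03 to 0.11 FPKM after DMSO, with PTPRC and CD3E listed at 0 in all 6 libraries. Endothelial markers summed to 0 to 0.03 FPKM after Japoflavone B and 0.02 to 0.07 FPKM after DMSO, with VWF and KDR listed at 0. Fibroblast markers summed to 0.61 to 0.79 FPKM after Japoflavone B and 4.59 to 5.26 FPKM after DMSO, of which COL1A1 made up 0.473 and 4.64 FPKM. Mitochondrial genes took 8.43% ± 0.127 of counts after Japoflavone B and 4.36% ± 0.371 after DMSO (SD, n = 3 each). The part of these differences in the results below was not tested.

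All 54 genes fell after Japoflavone B, against 35.4% of all genes tested that were called lower and 34.7% that were called higher (edgeR quasi-likelihood test, Benjamini-Hochberg over 16082 genes, adjusted p of at most 0.05). Of the 54, 51 were lower by 2-fold or more, where 15% of all genes were. In each of the 54, every treated library was lower in FPKM than every DMSO library, where 40.7% of all genes showed that order. The median log2 fold change was -2.004, or 25.0% of the DMSO level, beside 0.00 over all genes tested. The sizes of the change differed widely among members: 5 fell by 8-fold or more, 22 by 4-fold to 8-fold, 24 by 2-fold to 4-fold, and 3, namely FOXM1, PKMYT1 and BUB3, by less than 2-fold. A value of -1.81 marks the lowest 5% of all genes, and 30 of the 54 lay below it. In this bulk RNA, fewer cells near mitosis and less of each transcript per cell cannot be told apart.

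Together the 54 genes held 0.214% ± 0.00494 of all counts after Japoflavone B and 0.882% ± 0.0275 after DMSO (SD, n = 3 each). Per length, their median level was 5.12 FPKM after Japoflavone B and 26.9 FPKM after DMSO, beside 3.39 and 3.82 FPKM over all genes tested. After Japoflavone B 37 of the 54 lay above the median tested gene, against all 54 after DMSO. Within a group the 54 genes' median deviation from the group mean lay between -0.04 and 0.02 log2 in the Japoflavone B libraries and between -0.02 and 0.00 log2 in the DMSO libraries. The order of levels changed as well. After Japoflavone B CDC25B ranked first at 42.7 ± 0.0814 FPKM, TOP2A second at 28.4 ± 1.17 and CCNB1 eighth at 18.1 ± 0.723 FPKM, whereas after DMSO TOP2A ranked first at 223 ± 12.9 FPKM, CDC25B second at 105 ± 3.14 and CCNB1 followed at 102 ± 3.46 FPKM (mean ± SD, n = 3). The DMSO libraries of CDC25B and CCNB1 overlapped, so their order there is within the spread. HJURP dropped furthest in that order, to rank 36 after Japoflavone B against rank 11 after DMSO. Size of change and level in DMSO cells were hardly related across the 54 genes (Pearson's r = -0.06, Spearman's rho = -0.05, a description, since the genes share 6 libraries and the DMSO level enters both axes).

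**Figure D1:**
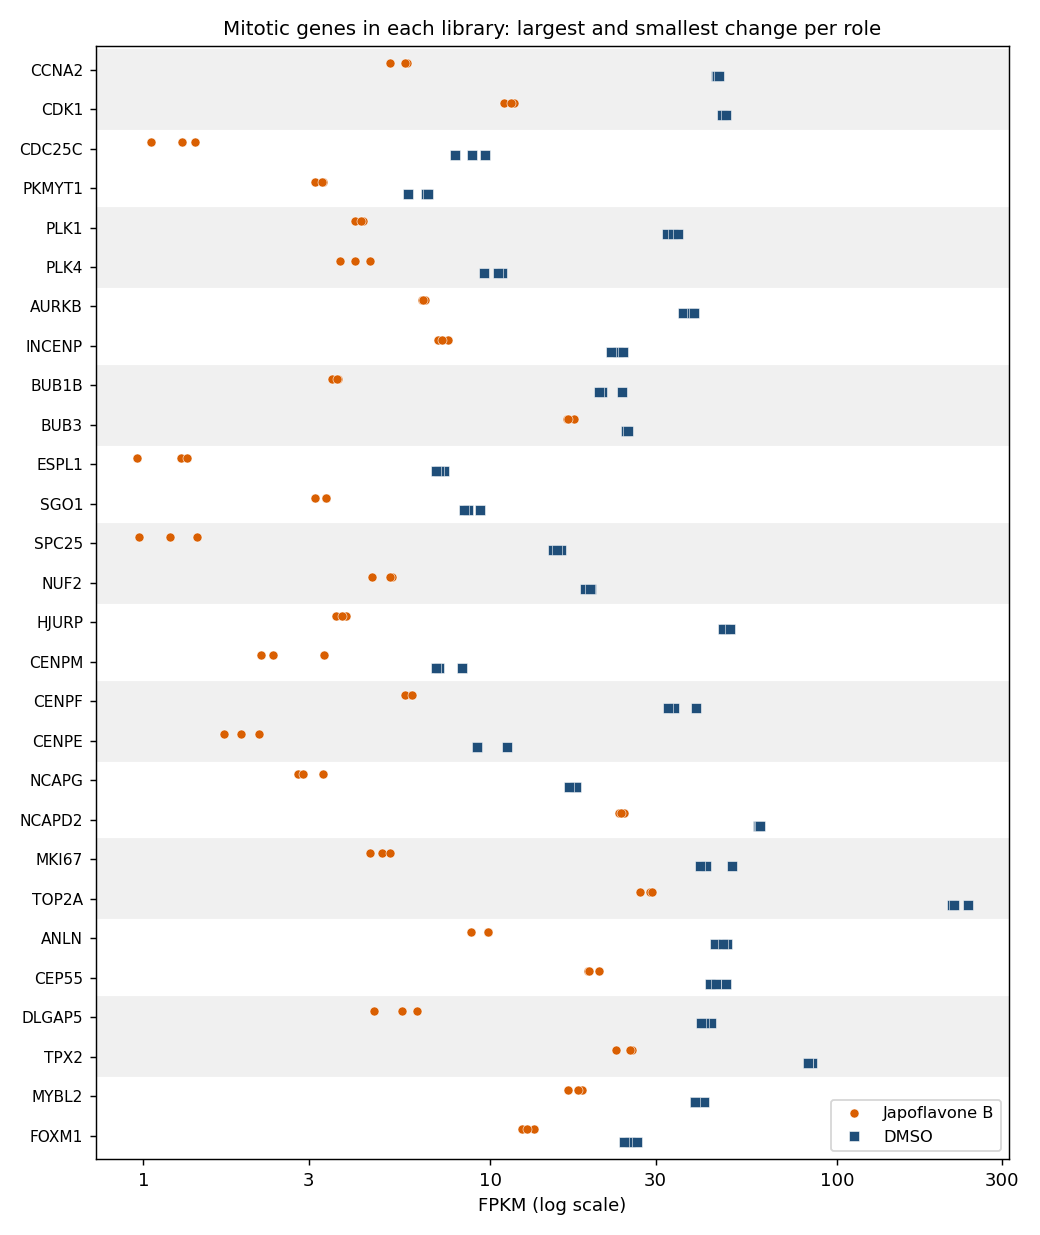
FPKM of 28 genes in each of the 6 libraries on a log axis, 2 genes per role, namely the one with the largest and the one with the smallest change, with grey and white bands separating roles. Orange circles are the 3 Japoflavone B libraries and blue squares the 3 DMSO libraries; in each gene shown all circles lie to the left of all squares, by least for BUB3 and by most for SPC25 and HJURP.

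The cyclins fell further than the kinase they activate. CCNA2, the cyclin A gene (ENSG00000145386, chromosome 4, 121816444 to 121823883, GRCh38), had 5.75, 5.16 and 5.70 FPKM in the 3 Japoflavone B libraries, against 44.9, 45.0 and 45.8 FPKM in the DMSO libraries. In the edgeR fit CCNA2 was 7.59-fold lower, a log2 fold change of -2.92 ± 0.07 (SE, edgeR adjusted p = 1.77e-23). Unless another setting is named, folds and log2 fold changes are from that fit, which scales libraries otherwise than FPKM. They therefore differ somewhat from ratios of the FPKM values listed. CDK1 itself (ENSG00000170312, chromosome 10, 60778331 to 60794852) had 11.7, 10.96 and 11.47 FPKM after Japoflavone B and 47.1, 46.6 and 47.8 FPKM after DMSO, a log2 fold change of -1.95 ± 0.06 (edgeR adjusted p = 2.26e-21). Libraries of a group lay close together for both genes and the groups were far apart. The B-type cyclins CCNB1 and CCNB2 fell 5.25-fold and 5.60-fold. Within each library, the ratio of CCNB1 to CDK1 in FPKM was 1.54, 1.59 and 1.64 after Japoflavone B and 2.09, 2.21 and 2.20 after DMSO, so the groups did not overlap. With 3 against 3 the smallest possible p is 0.1, and the log2 ratios reached it (exact permutation test, two-sided).

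Activators and inhibitors of CDK1 fell by unequal amounts. CDC25C, the phosphatase gene that acts at mitotic entry, had 1.41, 1.05 and 1.29 FPKM in treated libraries, against 7.93, 8.88 and 9.68 FPKM in DMSO libraries, and was 6.51-fold lower (log2 -2.70 ± 0.13; edgeR adjusted p = 5.70e-17). CDC25A, which also acts at entry into S phase, fell 5.60-fold, and CDC25B, the most abundant of the 3 phosphatase genes, 2.29-fold. The inhibitory kinase genes moved less. PKMYT1 had 3.13, 3.30 and 3.28 FPKM after Japoflavone B and 5.81, 6.55 and 6.64 FPKM after DMSO (log2 -0.86 ± 0.09; edgeR adjusted p = 2.03e-09), and WEE1 fell 2.01-fold (log2 -1.01 ± 0.08). The ratio of CDC25C to WEE1 in FPKM was 0.483, 0.385 and 0.420 in the treated libraries and 1.15, 1.48 and 1.63 in the DMSO libraries. Every treated library thus held less CDC25C than WEE1 RNA per length and every DMSO library more (exact two-sided permutation p = 0.1, the smallest possible).

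Among the other mitotic kinases, PLK1 fell most and PLK4 least. PLK1, the polo kinase of mitotic entry, spindle assembly and cytokinesis (ENSG00000166851, chromosome 16, 23677656 to 23690367), had 4.29, 4.09 and 4.24 FPKM after Japoflavone B, against 32.3, 33.6 and 34.7 FPKM after DMSO, and was 7.42-fold lower (log2 -2.89 ± 0.07; edgeR adjusted p = 6.20e-24). AURKA, the kinase of centrosomes and spindle poles, and NEK2, which acts in centrosome separation, fell 5.42-fold and 5.58-fold. PLK4, which starts centriole duplication earlier in the cycle, had 4.09, 3.69 and 4.50 FPKM in treated and 10.8, 10.5 and 9.60 FPKM in DMSO libraries, a log2 fold change of -1.23 ± 0.08 (edgeR adjusted p = 3.37e-13). The chromosomal passenger complex carries Aurora B to centromeres and later to the midzone. Its kinase gene AURKB had 6.37, 6.49 and 6.41 FPKM after Japoflavone B and 36.00, 38.3 and 38.7 FPKM after DMSO (5.46-fold lower; log2 -2.45 ± 0.07). The scaffold gene INCENP had 7.54, 7.06 and 7.27 FPKM in treated libraries and 23.4, 24.2 and 22.3 FPKM in DMSO libraries (2.97-fold lower; log2 -1.57 ± 0.06), and borealin, CDCA8, stood near it at -1.66 ± 0.09. No test was run between genes.

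Checkpoint genes fell by very different amounts, from BUB1B at the top to BUB3. BUB1B, which encodes the CDC20 inhibitor BUBR1, had 3.63, 3.49 and 3.61 FPKM after Japoflavone B, against 24.1, 21.0 and 20.6 FPKM after DMSO, and was 5.70-fold lower (log2 -2.51 ± 0.08; edgeR adjusted p = 4.63e-21). BUB3, the partner that brings BUB1 and BUBR1 to kinetochores (ENSG00000154473, chromosome 10, 123154402 to 123170467), had 17.4, 16.6 and 16.8 FPKM in the treated libraries and 24.6, 24.6 and 25.0 FPKM in the DMSO libraries. Its groups did not overlap either, but the difference was only 1.36-fold (log2 -0.44 ± 0.05; edgeR adjusted p = 1.20e-08), the smallest of the 54. The kinase genes BUB1 and TTK were 3.79-fold and 3.13-fold lower, MAD2L1, the gene of the checkpoint effector MAD2, 2.71-fold lower, and CDC20, the checkpoint's target and an activator of the anaphase-promoting complex, 3.30-fold lower. Of the genes that act on sister chromatids, ESPL1, which encodes separase, fell furthest, with 1.28, 0.960 and 1.34 FPKM after Japoflavone B and 7.36, 7.12 and 6.96 FPKM after DMSO (log2 -2.47 ± 0.09). Its inhibitor securin, PTTG1, was 2.83-fold lower, and SGO1, the shugoshin that shields centromeric cohesin, had 3.37, 3.13 and 3.36 FPKM in treated and 8.62, 9.35 and 8.38 FPKM in DMSO libraries (log2 -1.32 ± 0.09).

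The 2 largest decreases among the 54 genes were in kinetochore genes. The NDC80 complex binds microtubules as a tetramer of NDC80, NUF2, SPC24 and SPC25. SPC25 (ENSG00000152253, chromosome 2, 168834132 to 168913371) had 1.43, 0.970 and 1.19 FPKM after Japoflavone B, against 15.2, 16.04 and 15.6 FPKM after DMSO, and was 12.0-fold lower (log2 -3.58 ± 0.14; edgeR adjusted p = 5.27e-19). NUF2 had 5.21, 5.16 and 4.55 FPKM in treated and 19.5, 18.8 and 19.4 FPKM in DMSO libraries and was 3.60-fold lower (log2 -1.85 ± 0.08). NDC80 and SPC24 lay between them, 8.32-fold and 4.74-fold lower. The 4 subunit transcripts spanned 0.860 FPKM (NDC80) to 4.97 FPKM (NUF2) after Japoflavone B and 7.75 FPKM (NDC80) to 19.2 FPKM (NUF2) after DMSO (means), so NUF2 was the most abundant and NDC80 the least in both groups.

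At the centromere, HJURP, the chaperone that deposits CENPA (ENSG00000123485, chromosome 2, 233833416 to 233854566), had 3.60, 3.84 and 3.73 FPKM after Japoflavone B, against 47.4, 46.9 and 49.0 FPKM after DMSO. It fell 12.0-fold (log2 -3.58 ± 0.07; edgeR adjusted p = 2.34e-25), as much as SPC25 and with a smaller error. CENPA, the centromeric histone H3 variant, and CENPI, an inner kinetochore subunit, followed at 8.39-fold and 7.28-fold lower. CENPK and CENPM, which join CENPI in the inner kinetochore, fell less: CENPM had 3.32, 2.18 and 2.36 FPKM in treated and 7.11, 8.30 and 6.98 FPKM in DMSO libraries (log2 -1.40 ± 0.15; edgeR adjusted p = 3.72e-09), and CENPK was 3.17-fold lower. CENPM rested on the fewest DMSO reads of the 54 genes, 762 over 3 libraries, and had the largest standard error. In the outer corona, CENPF had 5.90, 5.69 and 5.94 FPKM after Japoflavone B and 39.3, 34.0 and 32.5 FPKM after DMSO (5.62-fold lower; log2 -2.49 ± 0.06). The kinesin gene CENPE had 2.16, 1.71 and 1.91 FPKM in treated and 11.2, 9.19 and 9.17 FPKM in DMSO libraries (4.74-fold lower; log2 -2.24 ± 0.09).

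Condensin fell in all 5 of its subunit genes listed here. The non-SMC subunit genes NCAPG and NCAPH, particular to condensin I, were 5.42-fold and 4.90-fold lower, and NCAPG had 2.79, 2.88 and 3.29 FPKM in the treated libraries, against 17.5, 17.7 and 16.9 FPKM in the DMSO libraries (log2 -2.44 ± 0.08; edgeR adjusted p = 8.49e-21). NCAPD2, the third such subunit of condensin I (ENSG00000010292, chromosome 12, 6493356 to 6531955), had 24.3, 23.6 and 23.9 FPKM after Japoflavone B and 59.4, 59.6 and 60.2 FPKM after DMSO (log2 -1.22 ± 0.05; edgeR adjusted p = 2.63e-18). The ATPase genes SMC2 and SMC4, which condensins I and II share, were 2.71-fold and 3.20-fold lower. Of the other mitotic chromosome genes, MKI67, which coats chromosomes in mitosis and marks cycling cells, had 4.87, 4.51 and 5.13 FPKM in treated libraries and 49.95, 41.9 and 40.3 FPKM in DMSO libraries (log2 -3.08 ± 0.07). TOP2A, the topoisomerase that separates sister DNA, had 28.9, 27.1 and 29.3 FPKM after Japoflavone B and 238, 215 and 217 FPKM after DMSO (log2 -2.87 ± 0.05). DMSO replicate 1 was the highest DMSO library for both.

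All 6 cytokinesis genes fell by more than 2-fold. ANLN, the anillin that links actin and septins at the furrow, had 9.85, 8.82 and 9.83 FPKM after Japoflavone B, against 48.2, 44.5 and 46.9 FPKM after DMSO (log2 -2.19 ± 0.06; edgeR adjusted p = 2.57e-22). CEP55, which recruits the abscission machinery to the midbody, had 20.6, 19.2 and 19.3 FPKM in treated and 47.9, 43.1 and 44.9 FPKM in DMSO libraries (log2 -1.10 ± 0.06; edgeR adjusted p = 1.50e-15). Between these fell the citron kinase gene CIT, the centralspindlin subunit RACGAP1, the midzone bundler PRC1 and the RhoA exchange factor ECT2, at -2.06, -1.81, -1.67 and -1.29 log2. Among spindle factors, DLGAP5, a microtubule stabiliser, had 4.64, 5.57 and 6.14 FPKM in treated and 43.4, 41.3 and 40.5 FPKM in DMSO libraries (log2 -2.84 ± 0.08), and HMMR, a spindle pole protein, moved with it at -2.76 ± 0.08. TPX2, the activator of Aurora A, had 25.6, 25.2 and 23.1 FPKM after Japoflavone B and 84.9, 82.5 and 82.4 FPKM after DMSO (log2 -1.65 ± 0.05).

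The 2 transcription factors of the programme fell less than most of the 54 genes. MYBL2, the B-MYB gene, had 18.4, 17.9 and 16.8 FPKM after Japoflavone B, against 39.0, 41.5 and 39.0 FPKM after DMSO (log2 -1.07 ± 0.06; edgeR adjusted p = 5.44e-15). FOXM1, the forkhead activator of G2 and M genes (ENSG00000111206, chromosome 12, 2857680 to 2877174), had 13.4, 12.4 and 12.8 FPKM in treated and 25.3, 26.5 and 24.4 FPKM in DMSO libraries (log2 -0.88 ± 0.06; edgeR adjusted p = 1.34e-13). Libraries of the 2 groups did not overlap for either factor. Of the other 52 genes, only BUB3 and PKMYT1 fell less than FOXM1, and WEE1 also fell less than MYBL2.

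**Figure D2:**
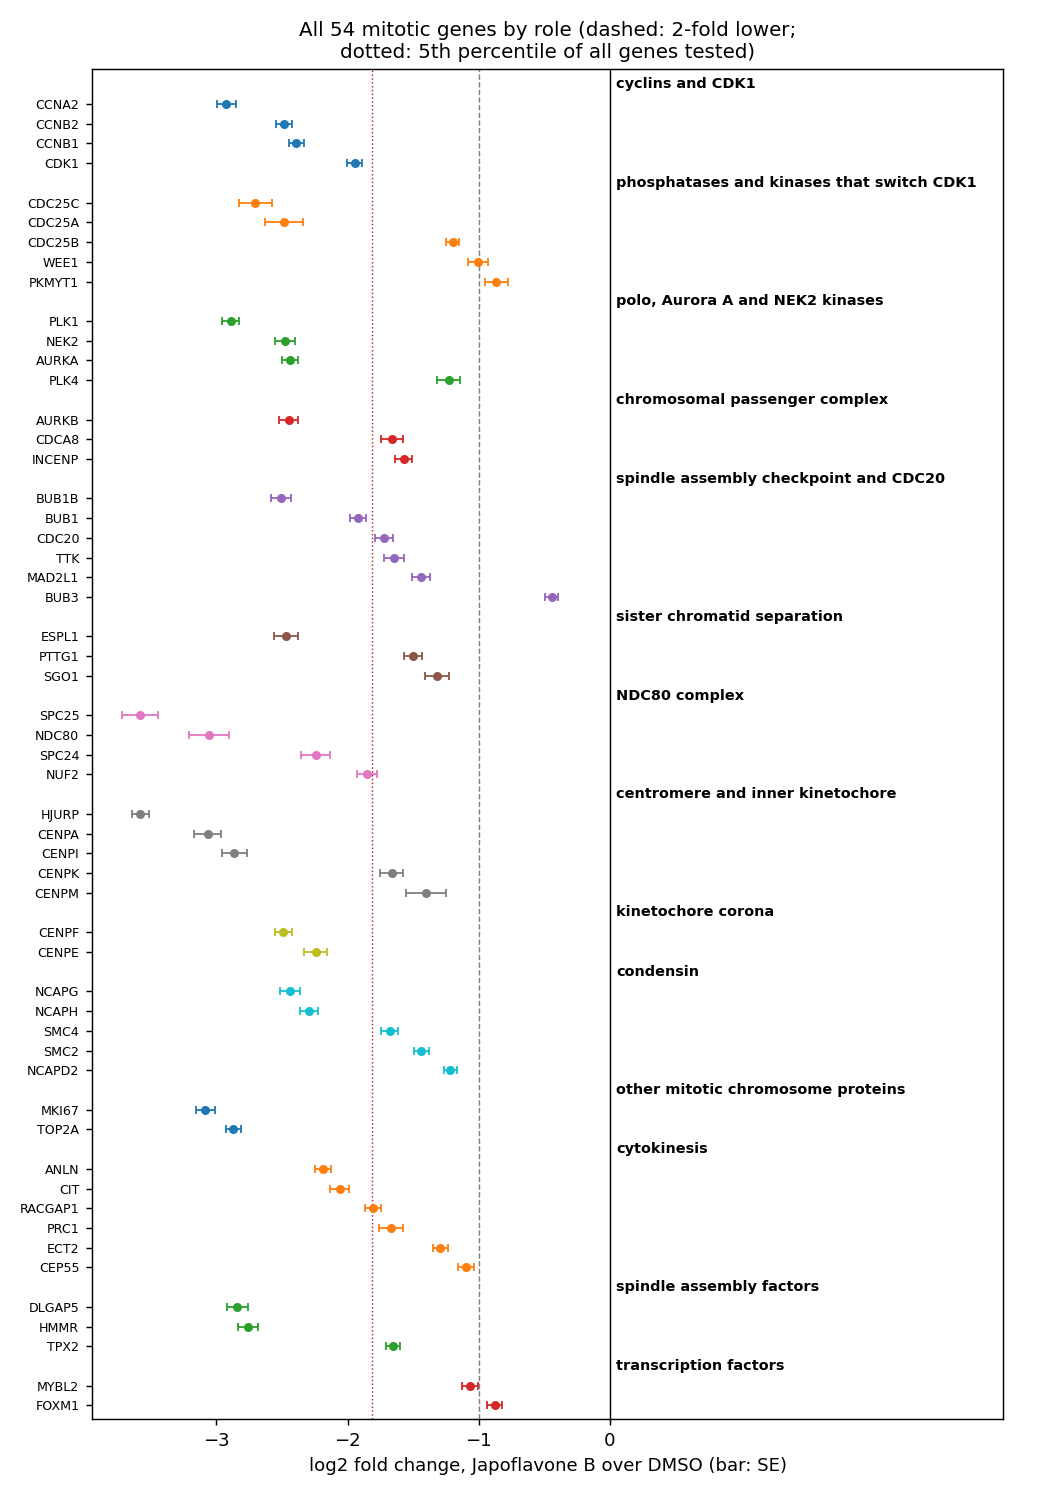
Log2 fold change, Japoflavone B over DMSO, of all 54 genes grouped by role, with bars of 1 SE derived from the edgeR F statistic. A dashed line marks a 2-fold decrease and a dotted line the 5th percentile of all genes tested (-1.81). All points lie below 0, from BUB3 at -0.44 to SPC25 and HJURP at -3.58, and the switch kinases, the 2 transcription factors and BUB3 lie nearest to 0.

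Promoters of many of the 54 genes held short words that their selection did not use. RefSeq promoter windows on GRCh38.p14, from 250 bases before to 50 after the annotated start, were at hand for 45 of the 54 genes, all but WEE1, PKMYT1, AURKA, BUB3, TTK, CENPM, RACGAP1, TPX2 and FOXM1, and for 11321 genes tested. For 39 of the 45, the first 30 bases from the start were found in transcripts of the same gene in the GENCODE 29 annotation. Which start A549 cells use was not tested. The word TTTGAA, the canonical form of the cell cycle homology region, was present on either strand in 29 of 45 windows (64.4%), against 9.65% of windows of the genes tested. Within 50 bases of the start it was found in 23 of 45 (51.1%), against 2.66%. The variant TTTAAA, which is its own reverse complement, was present in 9 of 45 (20%), against 7.60%, and the NF-Y box CCAAT in 32 of 45 (71.1%), against 36.3%. A pair or more of CCAAT boxes was present in 22 of 45 windows (48.9%), against 13.6%, and TTTGAA together with CCAAT in 21 of 45 (46.7%), against 4.03%. None of the 3 words was found in 4 of 45 windows, those of CDC25B, CDC25C, MYBL2 and CENPI, against 54.3% of windows of the genes tested. Of the word matches in the 45 windows, 4 overlapped a match to another of these words. The median GC content was 61.0% for the 45 windows and 65.3% for the genes tested, and its part in these shares was not tested; a match is a description of sequence, not a bound site.

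Of these windows 8 are printed from 250 bases before to 30 after the start, 5′ to 3′ on the strand of the gene, with every match to the 3 words on either strand in capitals. CDK1, CCNA2, CCNB1, CCNB2, CDC25C and PLK1 are shown as the textbook targets of these elements, and SPC25 and HJURP, chosen after their values were seen, as the genes with the largest decreases.
CDK1, chr10:60778081-60778360, plus strand: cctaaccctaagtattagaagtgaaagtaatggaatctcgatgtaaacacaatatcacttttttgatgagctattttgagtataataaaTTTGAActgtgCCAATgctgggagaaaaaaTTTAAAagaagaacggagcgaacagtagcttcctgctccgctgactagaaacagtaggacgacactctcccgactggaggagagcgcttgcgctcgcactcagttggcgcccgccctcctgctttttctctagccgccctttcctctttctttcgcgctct
CCNA2, chr4:121823854-121824133, minus strand: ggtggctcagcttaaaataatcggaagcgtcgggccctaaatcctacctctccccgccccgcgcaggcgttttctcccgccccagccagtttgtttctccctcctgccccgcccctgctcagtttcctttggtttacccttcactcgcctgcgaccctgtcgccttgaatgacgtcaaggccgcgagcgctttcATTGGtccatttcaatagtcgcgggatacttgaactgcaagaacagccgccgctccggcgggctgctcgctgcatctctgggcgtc
CCNB1, chr5:69166900-69167179, plus strand: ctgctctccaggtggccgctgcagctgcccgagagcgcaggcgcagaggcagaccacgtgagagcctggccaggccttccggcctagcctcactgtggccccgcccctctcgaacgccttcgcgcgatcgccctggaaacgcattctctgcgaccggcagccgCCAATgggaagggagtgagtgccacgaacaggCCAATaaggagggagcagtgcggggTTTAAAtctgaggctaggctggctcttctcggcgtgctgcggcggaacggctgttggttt
CCNB2, chr15:59104896-59105175, plus strand: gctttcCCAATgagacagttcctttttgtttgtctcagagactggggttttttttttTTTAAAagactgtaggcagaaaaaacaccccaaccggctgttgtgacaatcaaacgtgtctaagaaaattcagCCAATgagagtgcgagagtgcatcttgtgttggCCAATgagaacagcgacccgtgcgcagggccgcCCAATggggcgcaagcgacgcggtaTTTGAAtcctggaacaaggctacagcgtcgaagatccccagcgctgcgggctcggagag
CDC25C, chr5:138338326-138338605, minus strand: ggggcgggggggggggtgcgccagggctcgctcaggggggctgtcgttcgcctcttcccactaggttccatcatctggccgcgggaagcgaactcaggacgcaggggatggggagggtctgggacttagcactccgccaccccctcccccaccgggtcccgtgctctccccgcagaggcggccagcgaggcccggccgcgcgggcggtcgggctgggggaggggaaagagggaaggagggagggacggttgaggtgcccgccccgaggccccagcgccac
PLK1, chr16:23678639-23678918, plus strand: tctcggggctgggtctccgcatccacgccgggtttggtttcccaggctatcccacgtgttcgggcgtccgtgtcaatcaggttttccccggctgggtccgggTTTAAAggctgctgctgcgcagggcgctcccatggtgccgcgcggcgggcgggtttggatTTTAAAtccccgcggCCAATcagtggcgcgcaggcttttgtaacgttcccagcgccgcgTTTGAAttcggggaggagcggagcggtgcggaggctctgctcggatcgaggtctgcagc
SPC25, chr2:168890401-168890680, minus strand: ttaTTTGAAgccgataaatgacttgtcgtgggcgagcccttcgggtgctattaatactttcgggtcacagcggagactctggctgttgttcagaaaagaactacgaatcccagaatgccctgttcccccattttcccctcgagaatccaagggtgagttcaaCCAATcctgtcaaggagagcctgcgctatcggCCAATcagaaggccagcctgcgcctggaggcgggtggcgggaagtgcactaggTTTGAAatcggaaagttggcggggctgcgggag
HJURP, chr2:233854506-233854785, minus strand: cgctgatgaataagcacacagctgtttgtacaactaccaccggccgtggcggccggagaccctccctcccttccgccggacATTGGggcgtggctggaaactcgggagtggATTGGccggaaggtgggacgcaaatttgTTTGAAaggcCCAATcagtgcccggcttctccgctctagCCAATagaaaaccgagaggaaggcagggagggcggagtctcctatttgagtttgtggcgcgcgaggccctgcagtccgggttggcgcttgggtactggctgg

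Counted from the start, with negative positions upstream of it, CCNB2 and PLK1 each held TTTGAA at -29 to -24, and their nearest CCAAT boxes began at -54 in CCNB2 and -73 in PLK1. CCNB1 had TTTAAA at nearly the same place, -30 to -25, behind boxes that began at -87 and -55. In SPC25 a TTTGAA lay across the start itself, from -3 to base 3 of the transcript, with boxes that began at -88 and -56. HJURP held 4 boxes, 2 of them on the opposite strand, and a TTTGAA at -111 to -106. CDK1 held TTTGAA at -161 to -156. The CDC25C window, which lies at the outermost start of that gene, held none of the 3 words. Windows at other starts of CDC25C were not searched. CCNA2 held a single box on the opposite strand, at -56 to -52, and no TTTGAA or TTTAAA; other forms of the element were not searched. Among the 45 genes with a window, which leave out the 3 smallest changes of the 54 (BUB3, PKMYT1 and FOXM1), the 29 genes with TTTGAA had a median of -2.19 log2 and the 16 without it -2.27 log2, while the 32 genes with CCAAT had -2.34 log2 and the 13 without it -2.19 log2.

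**Figure D3:**
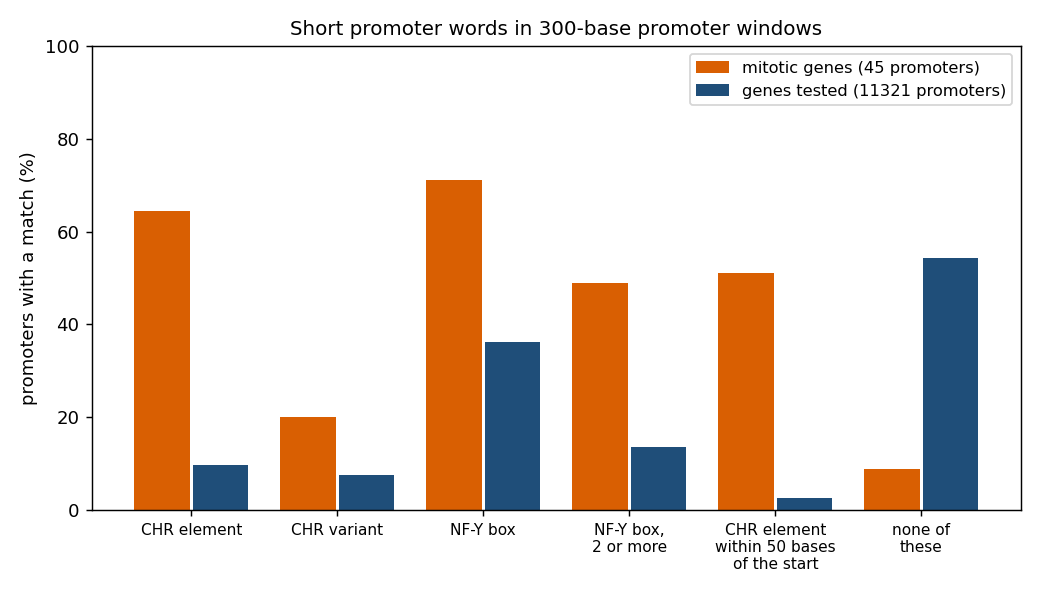
Percentage of promoter windows, from 250 bases before to 50 after the start, with a match, for 45 of the 54 mitotic genes in orange and for 11321 genes tested in blue (which include those 45). From left to right are the cell cycle homology element (CHR, TTTGAA), its variant TTTAAA, the NF-Y box CCAAT, a window with 2 or more such boxes, the CHR element within 50 bases of the start, and windows with none of the 3 words; orange exceeds blue in each pair except the last, 8.89% against 54.3%.

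Other genes of mitosis, in 12 lists of complexes and regulators that do not overlap the 54, moved less and in both directions. Of 126 such genes 125 were tested, and 77 fell, 25 rose and 23 did not pass (edgeR, as above), where 35.4% of all genes tested fell and 34.7% rose. Of the 125, 31 fell by 2-fold or more, where 15% of all genes did. Their median log2 fold change was -0.35, beside -2.004 for the 54 genes and 0.00 for all genes tested. Both sets of genes were chosen by function with earlier results of these data known, so the contrast is a description.

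Partners in the outer kinetochore were nearest to the 54. Beside the counts in this paragraph, 35.4% of all genes tested fell and 34.7% rose. Of 9 genes of the KNL1, MIS12 and SKA complexes, 8 fell and 1 rose (median -1.25 log2): KNL1, the scaffold that receives BUB1 and BUB3, was 4.55-fold lower, at 1.57 ± 0.0954 FPKM after Japoflavone B and 7.62 ± 1.32 FPKM after DMSO, whereas MIS12 was 1.52-fold higher, at 19.7 ± 0.685 FPKM after Japoflavone B and 13.9 ± 0.382 FPKM after DMSO (mean ± SD, n = 3 here and below). Of 6 other checkpoint genes 5 fell and none rose (median -0.91 log2), with KNTC1, a subunit of the ROD complex, 4.28-fold lower and SPDL1, its adaptor to dynein, 1.66-fold lower. The remaining gene, MAD1L1, was near the floor, at 0.0867 FPKM after Japoflavone B and 0.0633 FPKM after DMSO. With a minimum mean of 2 FPKM, which leaves MAD1L1 out, the median of this list was -1.14 log2. Among 14 other inner kinetochore genes 9 fell and 1 rose (median -0.75 log2). OIP5, a CENPA loading factor, fell 4.06-fold and CENPQ rose 1.46-fold. Of 3 condensin II subunit genes 2 fell, NCAPD3 at -1.05 and NCAPG2 at -0.60 log2, and NCAPH2 stood at 0.14 log2.

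The anaphase-promoting complex marks securin and cyclin B for destruction. Of its 14 core subunit genes 8 fell, 2 rose and 4 did not pass (median -0.25 log2), from ANAPC15, 2.09-fold lower, to ANAPC16, 1.58-fold higher. Only ANAPC15 fell by 2-fold or more. The counts in this paragraph stand beside 35.4% of all genes tested that fell, 15% by 2-fold or more, and 34.7% that rose. Of 7 genes for its E2 enzymes and regulators 3 fell, namely UBE2C (4.69-fold lower, 11.01 ± 0.806 FPKM after Japoflavone B and 55.4 ± 1.32 after DMSO), UBE2S (-1.60 log2) and the inhibitor FBXO5 (2.90-fold lower), while 4 did not pass. The median of these 7 genes, -0.20 log2, was -0.31 log2 without DMSO replicate 1 and -0.14 log2 without DMSO replicate 3. In the fit without DMSO replicate 3, 1 of them was called higher. Cohesin and its regulators had 9 of 13 lower and 2 higher (median -0.34 log2), with SGO2, the second shugoshin, 4.40-fold lower and the loader subunit MAU2 1.39-fold higher. The number called higher in this list was 1 without any 1 of the 3 Japoflavone B libraries, DMSO replicate 2 or DMSO replicate 3. Of 13 mitotic exit phosphatase and adaptor genes 9 fell and 3 rose, none by 2-fold; the catalytic subunit gene PPP2CB was 1.67-fold higher and CDC14A 1.51-fold lower.

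Of 19 other kinases and partners tested, 9 fell and 8 rose (median -0.03 log2), where 35.4% of all genes tested fell and 34.7% rose. By 2-fold or more, 6 of the 19 fell and 1 rose, where 15% of all genes fell by that much. CCNF, the F-box cyclin, was 4.69-fold lower, with 1.83 ± 0.201 FPKM after Japoflavone B and 9.29 ± 0.369 FPKM after DMSO. PLK3, a stress-responsive polo kinase, was 4.89-fold higher, with 8.25, 8.37 and 8.87 FPKM in treated libraries and 1.72, 1.92 and 1.96 FPKM in DMSO libraries, opposite in direction to PLK1 and PLK4. Of 12 other cytokinesis and septin genes 5 fell and 5 rose: CDCA3, which promotes the degradation of WEE1, fell 9.34-fold, to 0.973 ± 0.0907 FPKM against 9.75 ± 0.757 FPKM after DMSO, and the RhoA exchange factor gene ARHGEF2 rose 2.36-fold. Among the regulators of these promoters, 7 of 12 DREAM and MuvB genes fell and 3 rose (median -0.38 log2), from the pocket protein gene RBL1, 3.16-fold lower, to LIN37, 1.49-fold higher. LIN37 libraries overlapped in FPKM, at 2.40, 2.34 and 2.15 after Japoflavone B and 1.38, 2.17 and 1.37 after DMSO (edgeR adjusted p = 0.00621). All 3 NF-Y subunit genes fell, between NFYB at -0.70 and NFYC at -0.38 log2.

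**Figure D4:**
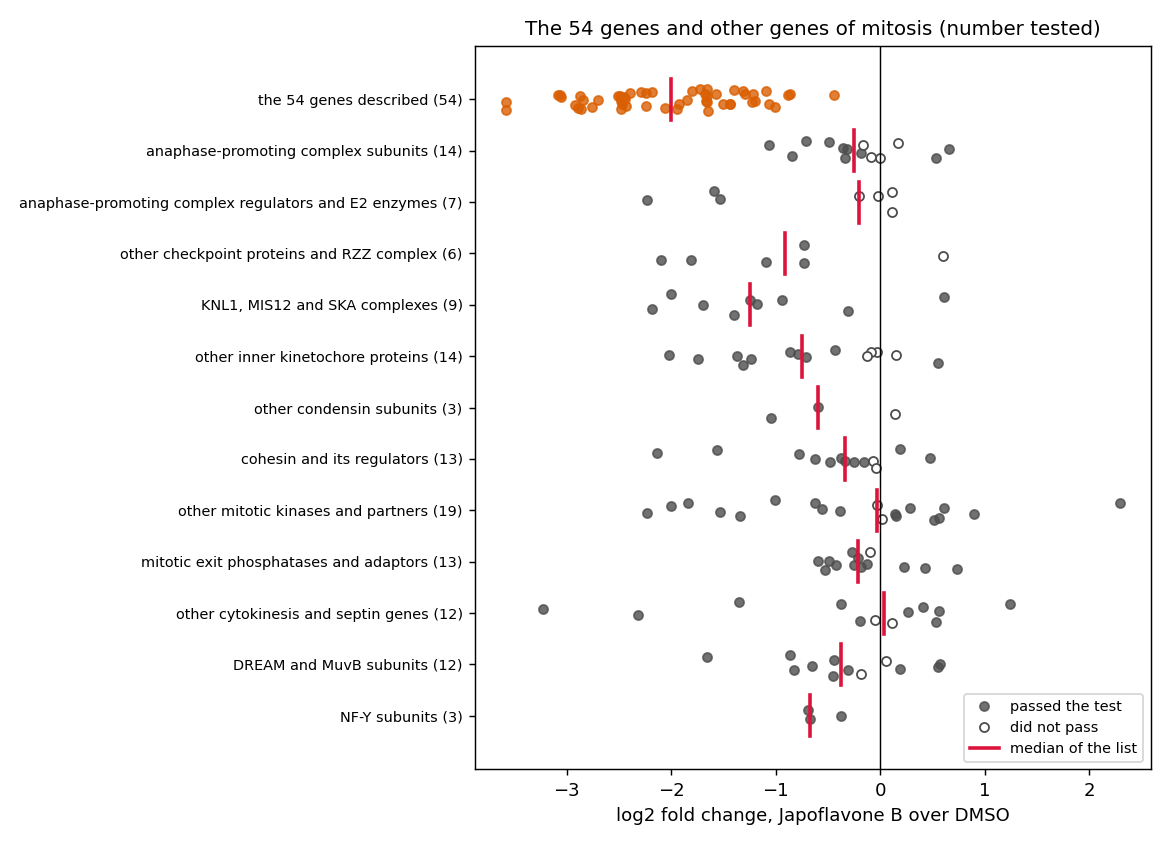
Log2 fold change, Japoflavone B over DMSO, of the 54 genes in orange (top row) and of 12 lists of other mitosis genes in grey, with the number tested in brackets. Filled points passed the edgeR test, open points did not, red bars are list medians and vertical scatter is arbitrary; the 54 genes centre on -2.004 and the other lists between -1.25 and 0.03.

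Reads of neighbouring genes may touch some of these values, and the strand setting of the counting is not given in the sources used here. Of the 54 genes, 13 overlapped a gene whose counts came to over 10% of their own in either group. CDC25C overlapped FAM53C on the other strand, which had 2632 counts over the treated libraries and 2534 over the DMSO libraries, beside 227 and 1686 for CDC25C. CENPA overlapped SLC35F6 on its own strand (4491 counts over the treated libraries and 4803 over the DMSO libraries, beside 343 and 3302 for CENPA). Others were CCNA2, PKMYT1, NUF2, SPC25, SMC4, NCAPD2, NCAPG, ANLN, PRC1 and FOXM1, and of the genes named from the other lists MIS12, OIP5, SGO2, ANAPC16, UBE2S, NCAPD3 and LIN37 had such a neighbour. For 17 of the 54 genes the table listed pseudogenes or copies, 24 in all, whose counts came to at most 2.35% of the member's after Japoflavone B and 2.19% after DMSO (CDC20P1). The part of such reads in these values was not tested.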

How the data were processed

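RNA of 3 Japoflavone B and 3 DMSO libraries was sequenced. Per the submitters' processing notes, cutadapt 1.9.1, HISAT2 2.0.1, HTSeq 0.6.1, DESeq2 and the GRCh38 build were used; the strand setting and annotation release are not given in the sources used here. The deposited table holds a raw count and an FPKM value per gene and library, with the exonic size in bases. Deposited FPKM scales by library total and was used for levels; recomputed from the counts it differed by at most 0.005.

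Counts were filtered with filterByExpr (minimum count 10, minimum total 15), scaled by TMM and tested with the quasi-likelihood test of edgeR 4.0.16 (R 4.3.3). P-values of the 16082 genes were adjusted together by the Benjamini-Hochberg method, with a threshold of 0.05. The edgeR test gives no standard error. The SE printed with a log2 fold change is its absolute value divided by the square root of the F statistic. No gene set was tested. On simulated data for these 16082 genes, 87 of 100 genes changed by 2-fold and 69 of 100 changed by 1.5-fold were recovered, and 9 of 15882 unchanged genes were called. Far fewer genes were changed there than were called in the real data, 5686 lower and 5577 higher. These rates therefore cannot be carried over to the real data. Alternatives used limma 3.58.1, DESeq2 1.42.0, other filters and scalings, the replicate number as a block, and the omission of each library.

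The members and lists were chosen with earlier results of these data known. Values per library are given for the gene with the largest and the gene with the smallest change in each role; of each other list the genes with the highest and lowest called log2 fold change are named, and further genes were named after their values were seen. Promoter windows were from RefSeq.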

Additional observations from a re-analysis of the deposited data

How the results depend on the processing

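All 54 genes kept their direction and passed the threshold under each of 16 alternatives, and 50 or 51 of them were lower by 2-fold or more. The 54-gene median log2 fold change of -2.004 became -2.11 with library totals alone, -2.05 with a minimum mean of 2 FPKM, -1.83 with limma on log2(FPKM + 1) and -2.05 on log2(FPKM + 0.1), and lay between -2.03 and -1.95 without any 1 library. The median of the 125 other mitosis genes, -0.35, became -0.46, -0.41, -0.41 and -0.45 under the same 4 settings, and -0.38 to -0.33 without any 1 library; 73 to 85 of them were called lower and 20 to 25 higher. With library totals alone the median of all genes was -0.11, and 42.4% of the called genes were higher, against 49.5% with TMM; the changes above are to be read relative to it. The median of the other cytokinesis and septin genes, 0.03, turned to -0.07 with library totals, -0.02 with the minimum of 2 FPKM and -0.07 in both limma fits; the cause was not tested. Of the 7 anaphase-promoting complex regulator and E2 genes 5, not 3, were called lower in both limma fits. Of the 13 cohesin genes 1, not 2, was called higher with library totals, with no filter, with the minimum of 2 FPKM and in both limma fits. The median of the other mitotic kinases and partners, -0.03, was -0.13 with library totals. LIN37 had no value under the minimum of 2 FPKM. Same-numbered libraries did not deviate together (correlations of 0.01, -0.00 and -0.04). With 3 libraries a group, such values cannot show whether libraries of the same number were prepared together, which the labels do not state. With the replicate block 54 of the 54 and 76 of the 125 genes were called lower. The authors' FPKM scale by library total, and 3 libraries a group limit the precision of low genes such as CENPM and NDC80.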
